A study of Rattus norvegicus with 12 samples.

Results

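The circles described here are the extrachromosomal circular DNAs (eccDNA) of rat back skin that the authors' annotation places in an exon or an intron of Pard3b, Gpc6 or Pde4d. They were chosen by gene symbol from the deposited list of eccDNA, and the 3 genes were proposed with the numbers of circles per gene in view. The rule found 349 circles among 83890 circles inside genes (genic circles) and 228353 eccDNA in all, of which Pard3b held 131, Gpc6 111 and Pde4d 107. Because circle numbers chose the genes, those numbers and the shares made from them are given as a description without a test.

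The libraries came from Circle-seq, in which circular DNA is enriched, linear DNA is digested with exonuclease and the rest is sequenced. All animals were wild-type (WT) SD rats kept under SPF conditions, and each of the 3 groups had 4 libraries. The control group was untreated. The 5 Gy x2 group received 2 weekly electron-beam fractions of 5 Gy to the back skin and the 5 Gy x4 group received 4, and skin was taken on day 7 after the last of them. The time at which control skin was taken is not given in the sources used here, and dose and elapsed time cannot be told apart between the irradiated groups. Whether each library is a different animal is not stated, so each SD and p-value measures the spread among these libraries only.

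EccDNA are closed circles that lie outside the chromosomes, and the small ones in healthy and damaged tissue carry pieces of genes rather than whole genes. A circle is recognised from reads that cross its junction, as split reads or as read pairs facing outward, together called supporting reads here. Pard3b encodes a scaffold of the Par-3 family, which sits at cell junctions and helps set the polarity of epithelial cells. Gpc6 encodes a glypican, a heparan sulfate proteoglycan held in the outer leaflet of the plasma membrane by a lipid anchor, where it modulates growth factor signals. Pde4d encodes a phosphodiesterase that breaks down cyclic AMP, and inhibitors of its family are used in inflammatory skin disease. These functions are background: the circles are genomic DNA, and no expression was measured.

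The 3 genes were long in these data, as their label says. On the rat build rn6, the circles of Pard3b (ENSRNOG00000024345) lay between positions 68424902 and 69423265 of chromosome 9, a span of 998 kb. The circles of Gpc6 (ENSRNOG00000046660) spanned 967 kb, from 102164418 to 103131029 on chromosome 15. The circles of Pde4d (ENSRNOG00000042536) spanned 895 kb, from 40561747 to 41456858 on chromosome 2. Spans run from the first to the last listed circle and are therefore lower bounds on gene length. Counting a circle once in each library that held it gave 139 calls for Pard3b, 113 for Gpc6 and 110 for Pde4d. These were ranks 4, 12 and 13 among 14890 genes with a circle, for which the median was 3 calls.

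The number of genic circles differed widely between libraries, from 1350 to 17285, and the supporting reads of a library from 35525 to 404815. Genic circles averaged 2.84-fold more in 5 Gy x2 and 4.72-fold more in 5 Gy x4 libraries than in control libraries, so the number of circles in a gene cannot be read apart from the total of its library. The total sequencing depth is not given in the sources used here. For that reason each gene's circles are given both as numbers and as a share of the genic circles of the same library.

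Pard3b circles were more numerous after irradiation and also made up a larger share of genic circles. Control replicates 1 to 4 held 2, 1, 4 and 1 Pard3b circles. The 5 Gy x2 replicates held 16, 18, 17 and 3, and the 5 Gy x4 replicates 17, 30, 26 and 4. Replicate 4 of each irradiated group was low, and it overlapped the control range in both. Mean numbers were 6.75-fold higher in 5 Gy x2 and 9.63-fold higher in 5 Gy x4 than in control.

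As a share of genic circles, Pard3b stood at 0.110%, 0.0285%, 0.106% and 0.0741% in control replicates 1 to 4. The 5 Gy x2 replicates had 0.242%, 0.168%, 0.169% and 0.127%, and the 5 Gy x4 replicates 0.206%, 0.182%, 0.150% and 0.0548%. All 5 Gy x2 libraries lay above all control libraries, while 5 Gy x4 replicate 4 lay inside the control range. The control mean was 0.0796% ± 0.0377 (SD, n = 4), beside 0.177% ± 0.0475 for 5 Gy x2 and 0.148% ± 0.0663 for 5 Gy x4. The share was thus 2.22-fold higher in 5 Gy x2 and 1.86-fold higher in 5 Gy x4 than in control. Without 5 Gy x4 replicate 4, the 5 Gy x4 share was 2.25-fold higher and no longer overlapped control. Other omissions narrowed the difference. Without control replicate 2 the control mean was 0.0967%, and without 5 Gy x4 replicate 1 the 5 Gy x4 mean was 0.129%.

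Gpc6 circles were also more numerous after irradiation, and their share differed less between the irradiated groups than that of the other genes. Control replicates 1 to 4 held 2, 5, 2 and 0 Gpc6 circles, the 5 Gy x2 replicates 11, 11, 14 and 4, and the 5 Gy x4 replicates 13, 24, 18 and 9. All 5 Gy x4 libraries lay above all control libraries. Control replicate 2 held more Gpc6 circles than 5 Gy x2 replicate 4, so those groups overlapped. Numbers averaged 4.44-fold the control number after 5 Gy x2 and 7.11-fold after 5 Gy x4.

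The Gpc6 share of genic circles was 0.110%, 0.142%, 0.0528% and 0% in control replicates 1 to 4. It was 0.166%, 0.103%, 0.139% and 0.170% in the 5 Gy x2 replicates, and 0.158%, 0.145%, 0.104% and 0.123% in the 5 Gy x4 replicates. The irradiated libraries filled a narrow range whose lower part was shared with control replicates 1 and 2. Group means were 0.0764% ± 0.0630 (SD, n = 4), 0.145% ± 0.0310 and 0.133% ± 0.0237, which is 1.89-fold and 1.74-fold the control share. Control replicate 4 had no Gpc6 circle among 1350 genic circles, and a count of 0 there allows a share of up to 0.222%.

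Pde4d was the member whose share stood highest in 5 Gy x4 against 5 Gy x2, at 1.50-fold. Its circles numbered 2, 1, 6 and 0 in control replicates 1 to 4, 9, 13, 10 and 1 in the 5 Gy x2 replicates, and 10, 23, 18 and 17 in the 5 Gy x4 replicates. All 5 Gy x4 libraries were above all control libraries. Replicate 4 of 5 Gy x2 was within the control range. The mean numbers were 3.67-fold and 7.56-fold those of control.

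Shares of Pde4d were 0.110%, 0.0285%, 0.158% and 0% in control replicates 1 to 4. They were 0.136%, 0.121%, 0.0996% and 0.0425% in the 5 Gy x2 replicates, and 0.121%, 0.139%, 0.104% and 0.233% in the 5 Gy x4 replicates. Control replicate 3 lay above every 5 Gy x2 library, and the 5 Gy x4 mean leaned on replicate 4. The means were 0.0743% ± 0.0730 (SD, n = 4), 0.0998% ± 0.0411 and 0.149% ± 0.0574. The 5 Gy x2 share was 1.34-fold and the 5 Gy x4 share 2.01-fold that of control. Without control replicate 3 these folds were 2.16 and 3.23, and without control replicate 4, which had no Pde4d circle, they were 1.01 and 1.51. Counting circles outside 330 to 419 bp alone turned the 5 Gy x2 fold to 0.909, and counting circles of that length alone gave 0.993.

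**Figure D1:**
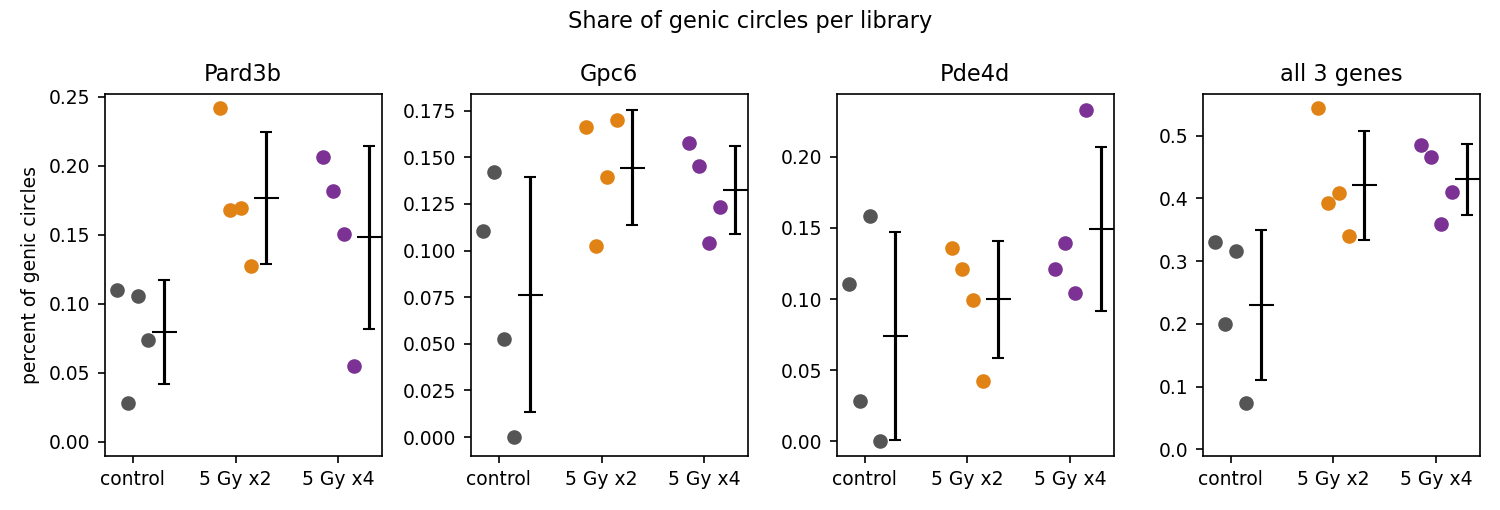
Share of genic circles (percent, vertical axis; each panel has its own scale) for Pard3b, Gpc6, Pde4d and the 3 genes together, with 1 point per library and, beside the points, the mean and SD of the 4 libraries of each group. The 3 genes together sit between 0.0741% and 0.331% in control and between 0.340% and 0.544% in 5 Gy x2, while single genes overlap between groups except Pard3b in 5 Gy x2 against control. Circle numbers chose the genes, so these positions are a description.

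These separations were read against 137 genes with at least 50 calls. For numbers, every 5 Gy x4 library was above every control library in 2 of the 3 genes, Gpc6 and Pde4d, and in 51.1% of the 137 genes. The same held for 0 of the 3 genes in 5 Gy x2 against control, beside 5.11% of the 137, and for 0 of 3 in 5 Gy x4 against 5 Gy x2, beside 2.19%. For shares, the 5 Gy x2 libraries were all above control in Pard3b alone, beside 5.84% of genes. In 5 Gy x4 against control, 0 of 3 genes were apart, beside 8.03% of genes, and in 5 Gy x4 against 5 Gy x2 0 of 3, beside 1.46%. Nothing is read from these counts about the members, since circle numbers chose them.

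The fold of the share was compared with that of the same 137 genes, whose median against control was 1.16 with 2 fractions and 1.17 with 4. In 5 Gy x2, 20 genes had a higher fold than Pard3b, 29 than Gpc6 and 55 than Pde4d. In 5 Gy x4, 33 genes had a higher fold than Pard3b, 41 than Gpc6 and 28 than Pde4d. Pard3b and Gpc6 in 5 Gy x2, and Pard3b and Pde4d in 5 Gy x4, were thus above the upper quartile of 1.81 and 1.84 respectively. Both comparisons share the control libraries. Nothing is read from these positions about the members, since circle numbers chose them. Between the irradiated groups the median fold was 0.974, and the members had 0.839 for Pard3b, 0.917 for Gpc6 and 1.50 for Pde4d.

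Together the 3 genes held 6, 7, 12 and 1 circles in control replicates 1 to 4. They held 36, 42, 41 and 8 in the 5 Gy x2 replicates and 40, 77, 62 and 30 in the 5 Gy x4 replicates. Their summed share in control was 0.230% ± 0.120 (SD, n = 4), beside 0.421% ± 0.0868 after 5 Gy x2 and 0.430% ± 0.0570 after 5 Gy x4. The irradiated libraries, at 0.340% to 0.544%, did not overlap the control libraries, at 0.0741% to 0.331%. Sums over other sets of 3 genes were not computed, and circle numbers chose these genes, so nothing is read from that separation. Both irradiated groups overlapped control when only circles with at least 5 reads, or only circles of 330 to 419 bp, were counted, and 5 Gy x2 did so outside that length. The lowest irradiated and the highest control library were close: 95% Wilson intervals ran from 0.172% to 0.669% in 5 Gy x2 replicate 4 and from 0.152% to 0.720% in control replicate 1. The summed share was 1.83-fold and 1.87-fold that of control, and 1.02-fold higher in 5 Gy x4 than in 5 Gy x2. The Wilson intervals cover only the counting error of circles within a library, and the reads carry no molecular identifiers.

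Library totals moved with the groups, so the summed share was also computed at a common depth. The lowest library had 35525 supporting reads, of which 34499 belonged to eccDNA and the rest to the separate list of large circles. When every library was drawn down to those 34499 reads, the expected control share was 0.241% ± 0.120 (SD, n = 4), and the irradiated shares were 0.409% ± 0.0930 for 5 Gy x2 and 0.401% ± 0.0463 for 5 Gy x4. The groups kept the same order against control at that depth. As a share of supporting reads rather than circles, the members had 0.142% ± 0.113, 0.294% ± 0.152 and 0.332% ± 0.0668. On that scale both irradiated groups overlapped control, and so did the Pard3b share in 5 Gy x2.

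Log2 fold changes of circle numbers relative to library totals came from a model fitted across genes. Each library was scaled by its total of calls and by a factor computed on the genes kept. These values are therefore not comparable with the number folds above. Of 14890 genes, 15 had enough circles for edgeR's quasi-likelihood fit, Pard3b and Gpc6 among them through their irradiated libraries. The fitted log2 fold change of Pard3b was 1.28 (SE 0.54) in 5 Gy x2 and 1.27 (SE 0.52) in 5 Gy x4 against control. Gpc6 had log2 fold changes of 0.70 (SE 0.51) and 0.88 (SE 0.48). Between 5 Gy x4 and 5 Gy x2 the log2 differences were -0.01 (SE 0.32) for Pard3b and 0.17 (SE 0.32) for Gpc6. Pde4d did not pass that filter. When 10 circles in each of 4 libraries were asked for instead, it had 0.59 (SE 0.56), 1.10 (SE 0.51) and 0.51 (SE 0.35) for the same 3 comparisons. No p-value is read from this fit, as the numbers chose the genes. The log2 values depended on the filter and the read minimum. With no filter, Pard3b had 2.19 in 5 Gy x2 and 2.37 in 5 Gy x4, Gpc6 1.61 and 1.97, and Pde4d 1.32 and 2.08. With at least 2 reads per circle, Pard3b had 2.09 and 2.06 and Gpc6 0.99 and 1.62. They also depended on single libraries. Without control replicate 3, Pard3b had 2.16 in 5 Gy x2 and 1.98 in 5 Gy x4, and without 5 Gy x2 replicate 4 it had 2.01 in 5 Gy x2. Gpc6 had 1.73 and 1.70 without control replicate 2, and in 5 Gy x2 1.36 without replicate 2 and 1.35 without replicate 4 of that group. Other omissions lowered the values. Without control replicate 4, Gpc6 had 0.50 (SE 0.46) in 5 Gy x2 and 0.54 (SE 0.44) in 5 Gy x4. Pard3b in 5 Gy x4 had 1.13 without control replicate 4 and 1.16 without control replicate 2. All of these values against control were above 0, and nothing is read from that sign, since circle numbers chose the genes.

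Circles were scattered along each gene rather than gathered at one place. In 10 equal parts of the span, Pard3b had 8 to 19 circles, Gpc6 4 to 17 and Pde4d 7 to 15. Circles covered 4.71% of the Pard3b span, 3.98% of the Gpc6 span and 4.10% of the Pde4d span. Neighbouring circles overlapped 5 times in Pard3b, once in Gpc6 and 3 times in Pde4d. The longest stretches without any circle were 46.8 kb in Pard3b, 53.5 kb in Gpc6 and 37.0 kb in Pde4d.

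**Figure D2:**
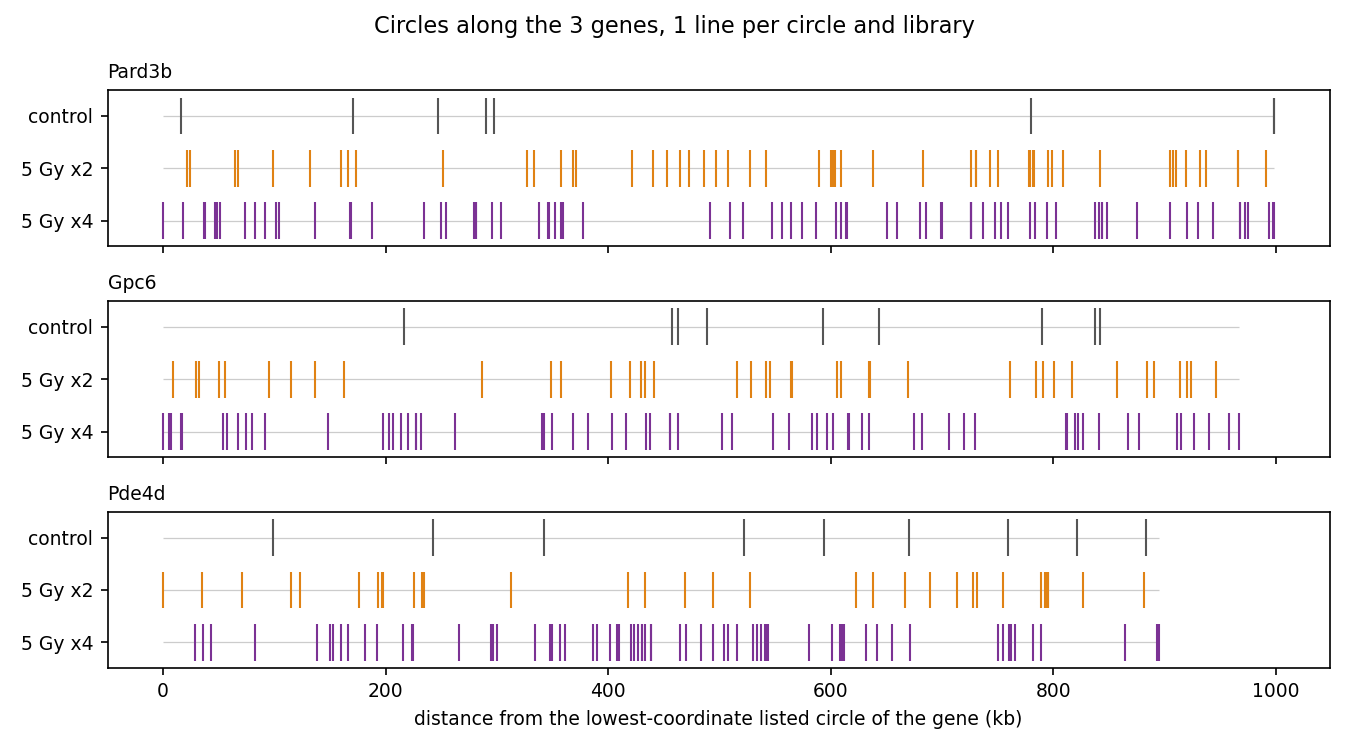
Position of each circle along Pard3b, Gpc6 and Pde4d, as distance in kb from the lowest-coordinate listed circle of the gene (horizontal axis), with 1 line per circle and library and 1 row per group. Irradiated libraries place circles along the whole of each gene, with the longest circle-free stretches at 46.8, 53.5 and 37.0 kb when all libraries are joined.

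Per megabase, the 3 genes held on average more circles than their chromosomes as a whole in irradiated skin, and not in every library. Averaged over the 12 libraries, Pard3b had 11.6 circles per Mb against 7.61 for chromosome 9, Gpc6 9.74 against 7.19 for chromosome 15, and Pde4d 10.2 against 7.05 for chromosome 2. In control skin the ratio of gene to chromosome was 0.774 for Pard3b, 0.944 for Gpc6 and 1.12 for Pde4d. It was 1.77, 1.42 and 1.28 in 5 Gy x2, and 1.53, 1.40 and 1.62 in 5 Gy x4. Gene density exceeded that of the chromosome in 2 of 4 control libraries for each gene, in 4, 4 and 3 of 4 for 5 Gy x2, and in 3, 4 and 4 of 4 for 5 Gy x4. The control ratios rest on 8, 9 and 9 calls.

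The surroundings and other genes set these densities in scale. Over all libraries, Pard3b held 139 calls, and flanks of the same width held 94 on the lower and 117 on the higher coordinate side. Gpc6 held 113, against 96 and 139 in its flanks, and Pde4d 110, against 52 and 77. Gpc6 therefore lay between its flanks, whereas Pard3b and Pde4d were above both. Per Mb of span, Pard3b had 139 calls, Gpc6 117 and Pde4d 123, against a median of 117 over the 137 genes with at least 50 calls. On this measure Gpc6 was at the median and Pard3b above the upper quartile of 134, with rank 29 of 137. Circle numbers chose the members, so these positions are a description. The spans of Pard3b, Gpc6 and Pde4d ranked 11, 16 and 20 among the 137.

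Nearly all circles were intronic. Introns held 128 of 131 Pard3b circles, 110 of 111 Gpc6 circles and all 107 Pde4d circles. The 3 exonic Pard3b circles lay at chr9:68795430-68795691 (262 bp, 14 supporting reads in 5 Gy x2 replicate 3), chr9:68946037-68946275 (239 bp, 5 reads in 5 Gy x4 replicate 1) and chr9:69272481-69272876 (396 bp, 5 reads in 5 Gy x4 replicate 2). The exonic Gpc6 circle, at chr15:102164418-102164818, opened the span of that gene. None of the 4 exonic circles came from a control library.

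The exonic share was tested within each library, comparing the members' circles with all other genic circles of that library. It averaged 0.628% ± 1.14 (SD, n = 12) for the members and 11.6% ± 2.13 for the other circles, a difference of -10.9 percentage points ± 1.94. The members were lower in 12 of 12 libraries, with an exact sign-flip permutation p of 0.000488, two-sided, the smallest that 12 pairs can give, and an adjusted p of 0.00244 by Benjamini-Hochberg over 5 measures. Other circle-rich genes were low too: over the 137 genes with at least 50 calls the median exonic share was 1.85%, beside 2.16% for Pard3b, 0.885% for Gpc6 and 0% for Pde4d. Pard3b was above that median, with 57 genes higher, and Gpc6 and Pde4d were below it. The members were chosen with circle numbers in view, so the test cannot set them apart from other circle-rich genes. In the control libraries, with 1 to 12 member circles, the members' exonic share was 0%.

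Most circles were 330 to 419 bp long, with a smaller group near 200 bp. The median length was 362 bp for the members and 359 bp for other genic circles. Lengths here are those of the listed entries, also where an entry joins calls with different ends. A Pard3b entry of 373 bp, for example, joined calls of 290 to 353 bp. Of the calls, 68.3% of Pard3b, 65.5% of Gpc6 and 76.4% of Pde4d fell in 330 to 419 bp, against a median of 65.1% over the 137 genes. Pde4d was higher than 125 of these genes and lower than 10. A shorter class of 150 to 249 bp held 14.4% of Pard3b, 22.1% of Gpc6 and 10.9% of Pde4d calls. Only 2 calls, both of Pard3b, were 1000 bp or longer, and the longest circles had 1303 bp in Pard3b, 807 bp in Gpc6 and 828 bp in Pde4d, each with 1 read.

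**Figure D3:**
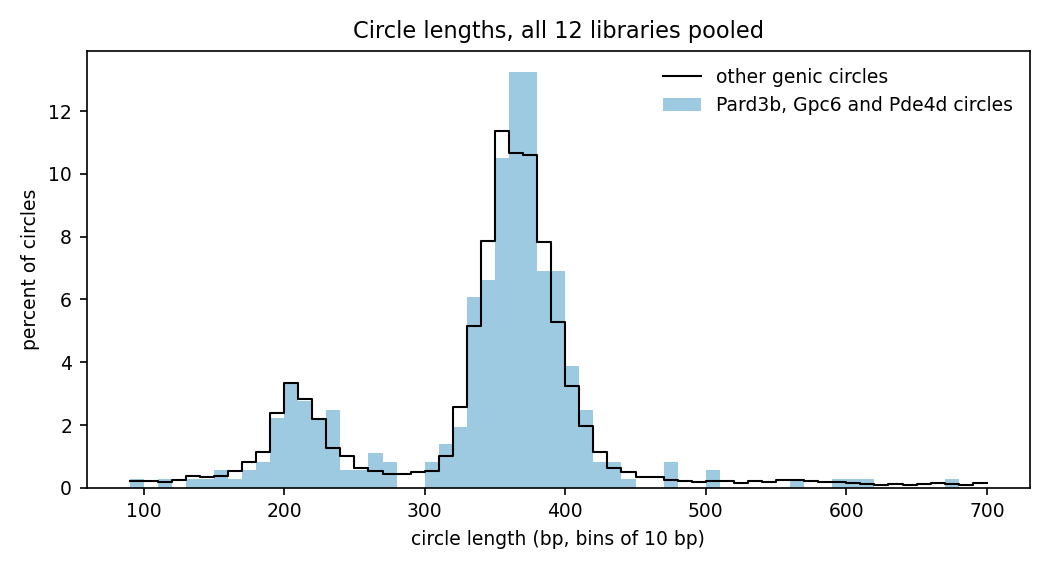
Circle length (bp, bins of 10 bp, horizontal axis) against percent of circles (vertical axis), for the 362 member calls (filled) and all other genic circles (line), the 12 libraries pooled. Both have their main peak between 330 and 419 bp and a smaller one near 200 bp, and the median lengths are 362 and 359 bp.

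Circles of 330 to 419 bp made up a smaller part of the control libraries than of the irradiated ones, in the members and in other genic circles. Pooled within groups, 12 of 26 member circles (46.2%) of control skin were 330 to 419 bp long, beside 95 of 127 (74.8%) for 5 Gy x2 and 146 of 209 (69.9%) for 5 Gy x4. Other genic circles had 34.9%, 67.5% and 68.1%. By library, the members ranged from 0% to 58.3% in control, from 68.3% to 87.5% in 5 Gy x2 and from 56.7% to 75% in 5 Gy x4. Control replicate 3 and 5 Gy x4 replicate 4 overlapped. Within libraries the members exceeded other genic circles by 5.28 percentage points ± 12.9 (SD, n = 12), higher in 8 of 12, which did not pass the exact sign-flip permutation test (p = 0.185, adjusted 0.308). Their median length differed by -9.29 bp ± 27.7, which did not pass either (exact permutation p = 0.377, adjusted 0.471).

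Pard3b was the member in which length and group moved together most. In control libraries only 2 of its 8 circles were 330 to 419 bp long, against 38 of 54 in 5 Gy x2 and 55 of 77 in 5 Gy x4. Among circles of that length alone, the Pard3b share of genic circles was 6.27-fold higher in 5 Gy x2 and 4.95-fold higher in 5 Gy x4 than in control. Outside that length the 5 Gy x2 fold was 1.57 and the groups overlapped. For Gpc6 the 5 Gy x4 fold was 1.08 within and 2.86 outside that length. With so few control circles, these splits rest on single circles.

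**Figure D4:**
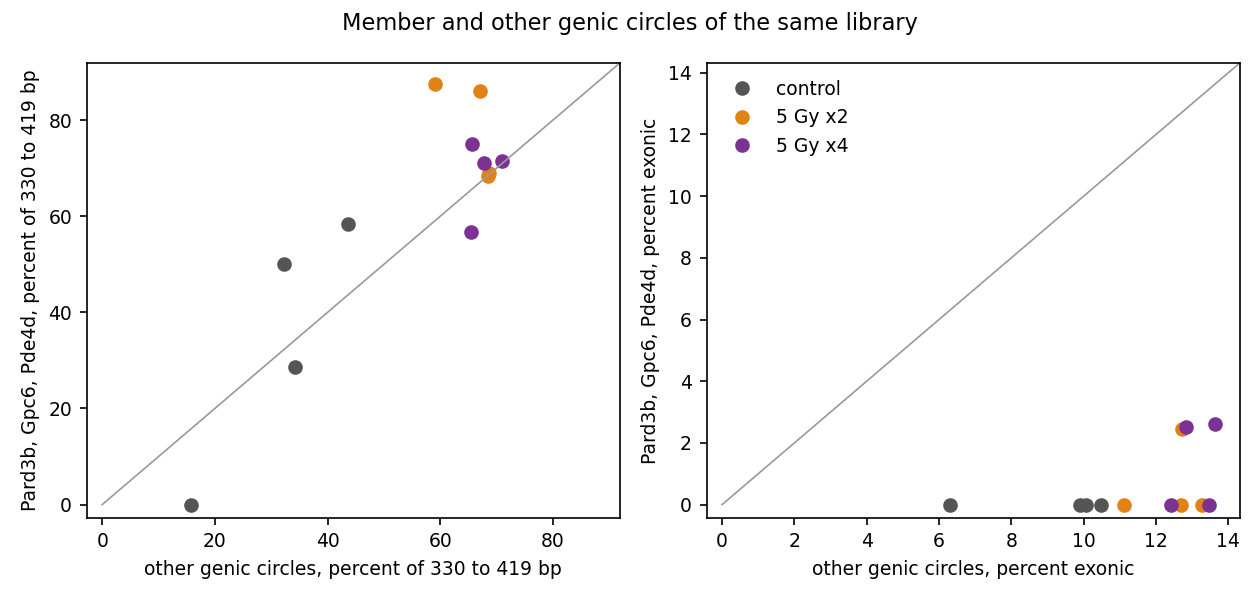
Member circles (vertical axes) against all other genic circles of the same library (horizontal axes), 1 point per library coloured by group, with the line of equality. On the left, the percent of circles 330 to 419 bp long scatters around the line, and on the right the percent exonic lies below it in 12 of 12 libraries.

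Most member circles were thinly supported. The median circle had 4 supporting reads, as in other genic circles, and 67 of 349 (19.2%) had 1 read, beside 19.2% of the others. All 349 together had 2674 supporting reads. Within libraries, the mean log2 supporting reads per circle was lower by 0.21 ± 0.35 (SD, n = 12) in the members, lower in 9 of 12 libraries, which did not pass the test (exact sign-flip permutation p = 0.0610, adjusted 0.153). The call depended on 1 library and on the read minimum: without control replicate 2 the difference was -0.26 (exact permutation, adjusted p = 0.0366), and with circles of at least 5 reads -0.27 (adjusted p = 0.0122).

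A few circles carried much of the reads of a gene. In 5 Gy x2 replicate 1, an intronic Gpc6 circle at chr15:102692260-102692615 (356 bp) had 86 reads, 41.0% of the 210 Gpc6 reads there. The best-supported Pde4d circle, chr2:40874371-40874580 (210 bp), had 39 reads in the same library. In Pard3b, 1 listed circle gave all 18 reads of control replicate 2 and all 11 of control replicate 4. Reads of a gene in a control library can therefore be those of 1 circle.

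Short member circles averaged more reads than those of 330 to 419 bp. This comparison was added after several of the circles with most reads were seen to be short. Its p-values stand outside the 5 adjusted measures, and that of the members comes from the circles that prompted it. Some libraries held few short member circles, such as 1 in 5 Gy x2 replicate 4. In the 11 libraries with member circles of both classes, circles of 150 to 249 bp averaged 1.04 ± 1.01 (SD) more in log2 supporting reads than those of 330 to 419 bp, higher in 9 of 11 (exact sign-flip permutation p = 0.00781). Median reads were 9 over 57 short circles and 4 over 253 longer ones. Other genic circles had the same direction, with a difference of 0.75 ± 0.47 in 12 of 12 libraries (exact permutation p = 0.000488). The gap between members and other circles, 0.25 in 11 libraries, did not pass the exact permutation test (p = 0.297).

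**Figure D5:**
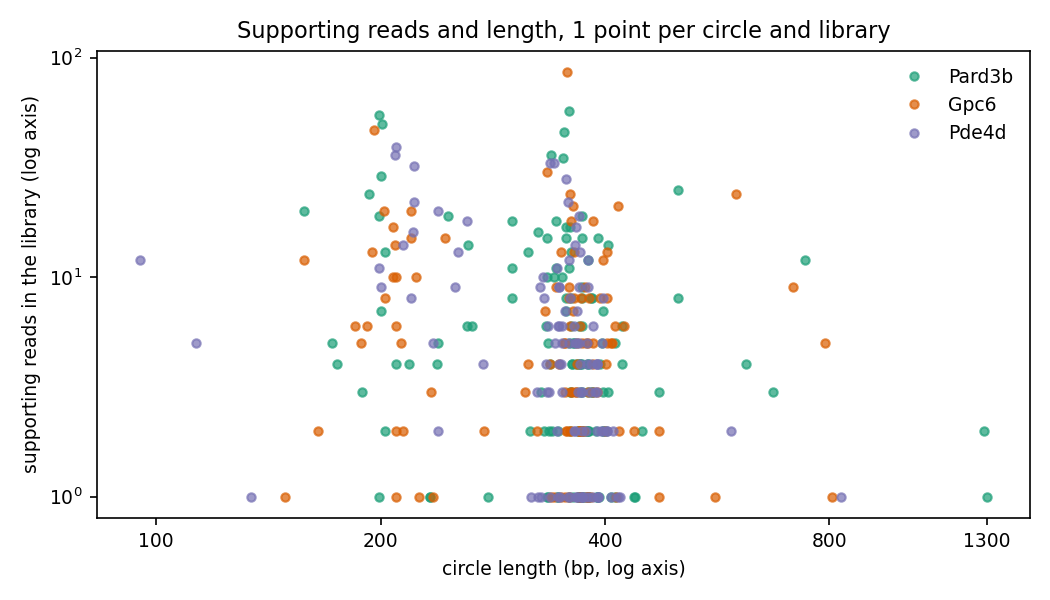
Supporting reads of each member circle in its library (vertical log axis) against circle length in bp (horizontal log axis), coloured by gene. Circles of 150 to 249 bp have a median of 9 reads and those of 330 to 419 bp a median of 4, and the circle with most reads, at 86, belongs to Gpc6.

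Circles were seldom found again in another library. Of the 349 circles, 339 (97.1%) were listed in 1 library, beside 95.8% of other genic circles, and 10 in several. Their ends were the same in each library for only 2 of the 10. One, in an intron of Pard3b at chr9:69155018-69155375, had 57 reads in 5 Gy x2 replicate 1 and 1 read in 5 Gy x2 replicate 3. The other, in an intron of Pde4d at chr2:41000238-41000476, had 2 reads in 5 Gy x4 replicate 3 and 20 in replicate 4. For the remaining 8, the deposited list joins overlapping calls with different ends into one entry.

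The entry found in most libraries shows this joining. A Pard3b circle listed at chr9:69150962-69151334 was called in 4 irradiated libraries, with 4, 6, 3 and 1 reads and lengths of 290, 290, 353 and 334 bp. The one entry that a control library shared with an irradiated one was the last of Pard3b, chr9:69422966-69423265. It had 18 reads and 300 bp in control replicate 2, 11 reads and 217 bp in control replicate 4, and 8 reads and 166 bp in 5 Gy x4 replicate 1. The remaining 9 recurrent entries came from irradiated libraries only.

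Recurrence within libraries was lower in the members in 8 of 12 libraries, which did not pass the test. The share of a library's circles also listed in another library was 13.3% ± 27.7 (SD, n = 12) for the members and 16.3% ± 11.8 for the others, a difference of -3.07 percentage points ± 21.0 (exact sign-flip permutation, adjusted p = 0.653). Control replicate 4, with 1 member circle that was recurrent, set the mean: without it the difference was -8.39 percentage points (exact permutation, adjusted p = 0.0415). Gpc6 alone had -11.8 percentage points (adjusted p = 0.0122) and Pde4d alone -10.3 (adjusted p = 0.0439), whereas Pard3b alone had 5.41 (adjusted p = 0.709). Among the 137 genes with at least 50 calls, the median was 7.69%, beside 9.35% for Pard3b, 3.54% for Gpc6 and 5.45% for Pde4d.

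Other entries touched the same genes without meeting the rule. A 223 bp circle within 2 kb upstream of Gpc6, chr15:102163287-102163509, had 13 reads in 5 Gy x4 replicate 2. A 355 bp circle within 2 kb downstream of Pde4d, chr2:41464609-41464963, had 7 reads in 5 Gy x4 replicate 1. Pde4d was also among 28 genes named for an entry of 5476384 bp on chromosome 2 in the authors' separate list of large circles, which rested on 1 read in 5 Gy x4 replicate 3.

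Relatives of the members were looked at next, in lists of the glypicans, the type 4 phosphodiesterases and polarity genes. None of their genes apart from Gpc6 and Pard3b had enough circles for the fit across genes. Of 6 glypicans, 5 had a circle, with 4 calls for Gpc1, 2 for Gpc2, 8 for Gpc3, 5 for Gpc4 and none for Gpc5 beside 113 for Gpc6. All 4 type 4 phosphodiesterases had one, with 2 calls for Pde4a, 27 for Pde4b and 3 for Pde4c beside 110 for Pde4d. Pde4b went another way than Pde4d between irradiated groups, with 6 control calls, 13 after 5 Gy x2 and 8 after 5 Gy x4. The calls of these relatives were not set against library totals, and the difference was not tested.

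All 14 polarity genes had a circle. Pard3, the closest relative of Pard3b, had 70 calls, 10 of them control, 23 after 5 Gy x2 and 37 after 5 Gy x4, spread over 558 kb. These calls were not set against library totals. Genic circles averaged 2.84-fold the control number in 5 Gy x2 and 4.72-fold in 5 Gy x4. The Pard3 density of 125 calls per Mb of span compares with 139 for Pard3b. The kinase partners of Pard3, the atypical protein kinases C encoded by Prkcz and Prkci, had 13 and 10 calls, and Tiam1, an exchange factor for Rac, had 13. Tjp1, a tight-junction scaffold, had 9, and the others 1 to 3 each.

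Genes with a like pattern of shares over the 12 libraries were found by Pearson correlation among 136 genes with at least 50 calls, as a description. Each share has the same library total below it, which the points have in common. The highest values for Pard3b were 0.750 with Dlg2, 0.748 with Foxp2 and 0.742 with Dgkb. For Gpc6 they were 0.776 with Mycbp2, 0.733 with a gene listed only as ENSRNOG00000054834 and 0.730 with Cdkal1. For Pde4d they were 0.843 with Cacna2d3, 0.728 with Astn2 and 0.696 with AABR07001519.1. The members were less alike among themselves, with 0.437 between Pard3b and Gpc6, 0.218 between Pard3b and Pde4d, and 0.210 between Gpc6 and Pde4d, and the median over all candidates was 0.129, 0.147 and 0.196 for Pard3b, Gpc6 and Pde4d.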

How the data were processed

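Circle-seq libraries of rat back skin were compared in 3 groups of 4 libraries, named by the labels. The authors deposited raw counts of supporting reads (split reads plus discordant pairs) per circle and library, with totals from 35525 to 404815, and annotation tables with exon, intron and flank labels and Ensembl gene IDs. The submitters' processing notes name BWA, Picard, bedtools and build rn6 without versions. No source used here gives the circle caller or the rule that merges circles across libraries. Coordinates in the deposited tables start from 0 and are given here from 1. The 8 columns of per-library values that remained in each of the 2 annotation tables were not used. Some entries were joined from calls with different ends, and every length measure used the length of the entry.

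The members and gene lists were chosen with earlier results of these data known. A circle was counted as present with at least 1 read and assigned to every gene its exon or intron row names. Named genes were the 3 members, the glypican, type 4 phosphodiesterase and polarity lists, and for each member the 3 genes with the highest Pearson r. Named circles were up to 3 recurrent ones per gene (all tied ones are counted), the best supported, the longest and the exonic ones. The choice of genes did not use the 5 tested measures directly. These measures were compared within libraries by two-sided exact sign-flip permutation tests with Benjamini-Hochberg adjustment (scipy 1.17.1). Fold changes came from edgeR 4.0.16 (TMM, filterByExpr, quasi-likelihood), with DESeq2 1.42.0 as an alternative. The edgeR fit was tested on simulated data with library totals above the real ones, so that check does not cover the present depth. Alternatives covered the read minimum, denominator, length class, depth, normalization, filter, replicate block and each library left out in turn. Intervals are 95% Wilson intervals, and limits at 0 use 3 counts.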

Additional observations from a re-analysis of the deposited data

Results flagged for a closer look

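In 39 checks of groups of 4 libraries for a value far from the others, 2 stood out, and chance alone flags about 1 in 20 groups. Replicate 4 of 5 Gy x2 held 3 Pard3b circles, while the others held 16 to 18. It was also the smallest irradiated library, with 2355 genic circles, and its Pard3b share was 0.127%, the lowest of its group. The part of library size in this was not tested.

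In control replicate 4, the members' exonic share was lower than that of other genic circles by a difference of -6.30 percentage points, against -10.5 to -9.91 in the other control libraries. That library held 1 member circle, which was intronic, so the difference is the exonic share of its other 1349 circles with the sign turned.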

How the results depend on the processing

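The exonic share stayed between -12.1 and -10.1 percentage points over 19 settings, and its adjusted p stayed under the threshold in each. None of these settings sets the members apart from other circle-rich genes, whose exonic share was low too. Reads per circle passed with at least 5 reads (-0.27, adjusted p = 0.0122) and lay between -0.26 and -0.15 with 1 library left out. The recurrent share passed for Gpc6 alone (-11.8) and Pde4d alone (-10.3) and ranged from -8.39 to -0.68 with 1 library left out. The summed share was 1.45-fold to 2.14-fold that of control in 5 Gy x2 and 1.52-fold to 2.64-fold in 5 Gy x4. In 5 Gy x4 against 5 Gy x2 it was 1.40-fold with at least 5 reads and 1.46-fold outside 330 to 419 bp, against 1.02. The causes were not tested. Without control replicates 1 and 4, a choice made after seeing the data, the summed shares kept their direction.

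Over 137 genes, correlations of same-numbered libraries ran from -0.17 to 0.21 (median 0.07), and 5 of 12 exceeded 0.1, against a median of -0.02 and 6 of 36 for other pairs. Of 12 libraries, 5 correlated best with their own number. Not every pair exceeded 0.1 and no label states a pairing, so the numbers were not used as one. With the replicate block, the log2 fold change of Pard3b was 1.20 in 5 Gy x2 and 1.24 in 5 Gy x4, 0.03 between them, and that of Gpc6 0.68, 0.86 and 0.18. Library size alone gave 1.00 for Pard3b and 0.61 for Gpc6 in 5 Gy x4. With at least 5 reads no member had enough circles for the fit. Densities over the reference gene span were not run, since no annotation of rn6 was used here. Control libraries held 1 to 12 member circles, which limits every control value.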
